A study of Homo sapiens with 16 samples.

Results

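A panel of 10 genes of glycolysis and of its last step to lactate was followed in ribosome profiling of cancer cell lines treated with rocaglamide A (RocA): LDHA, LDHB, GPI, PFKP, PFKL, PFKM, PKM, HK1, HK2 and ENO1. They were taken by name. All 10 of 10 were found among the 19389 coding genes that could be named, and all 10 passed the filter on low counts that left 9734 genes for the dose comparisons. Each gene is represented by the most read of its deposited transcript entries.

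Ribosome profiling counts the mRNA fragments that ribosomes protect from nuclease, so a count rises with the number of ribosomes on a coding sequence. It cannot separate more mRNA from more ribosomes per mRNA, and no RNA-seq was used here. The cells were 2 lung cancer lines, NCI-H1650 and NCI-H520, and 2 lines from melanoma, which were A375 and Hs 936.T. Each line gave 2 libraries after the vehicle DMSO, 1 after RocA at 0.3 µM and 1 after RocA at 3 µM, with an exposure of 30 min, which makes 16 libraries. No genetic alteration of the lines is named in the labels, and a line is a single cell population, so the 4 lines serve as the replicates of a dose.

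Glycolysis splits glucose into pyruvate. Hexokinases (HK1, HK2) trap glucose as glucose 6-phosphate, GPI turns it into fructose 6-phosphate, and phosphofructokinases (PFKL in liver, PFKM in muscle, PFKP in platelets, by their naming) make the committed step. Enolase (ENO1) and pyruvate kinase (PKM) act near the end, and lactate dehydrogenase tetramers built from LDHA and LDHB subunits exchange pyruvate and lactate. Tumour cells often run this pathway fast even with oxygen at hand. RocA is a plant compound that clamps the RNA helicase eIF4A onto RNA rich in A and G, and thereby blocks scanning ribosomes on some mRNAs more than on others.

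The counts of the named genes summed to 985172 to 5882565 per DMSO library and to 87492 to 1071815 per RocA library, so values from RocA libraries rest on fewer reads, least of all in NCI-H1650 at 3 µM. Libraries were scaled with TMM (a method that assumes that the typical gene is constant), and levels are given as CPM (the count scaled to a fixed library total), so a change is set against the rest of its own library and a global fall in translation would not show. The DMSO replicate 2 and 3 µM libraries of NCI-H520 carry NCI-H521 in their cell line label and were grouped by title. The 8 pigment cell markers summed to 18872 to 32498 CPM in Hs 936.T and to at most 457 in A375, so A375 showed little pigment cell expression, while 8 epithelial markers summed to 14279 to 19282 CPM in NCI-H1650 and 3631 to 4901 in NCI-H520. In NCI-H520 the pigment cell markers stood at 655 and 1564 CPM in the DMSO libraries against 178 at 0.3 µM and 434 at 3 µM, and their part in the NCI-H520 values below was not tested.

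At 0.3 µM, footprints of LDHA, GPI, PFKP and HK1 rose relative to other genes, those of LDHB, ENO1 and PFKM fell, and PFKL, PKM and HK2 did not pass the test. At 3 µM, the same 4 genes rose, LDHB, ENO1 and PFKL fell, and PFKM, PKM and HK2 did not pass. These calls are from edgeR's quasi-likelihood test with cell line and dose in the model and a Benjamini-Hochberg adjusted p under 0.05 over all 9734 genes. RocA moved much of the translatome at 0.3 µM: 60.0% of all tested genes were called, 27.5% higher and 32.5% lower. At 3 µM, 57.1% were called, 25.2% higher and 31.9% lower, so 7 of 10 genes called at each dose is near the background. The median log2 change of the 10 genes was 0.11 at 0.3 µM and -0.01 at 3 µM, against -0.09 and -0.16 over all tested genes. At 0.3 µM, 5 of the 10 genes were higher and 3 lower in all 4 lines, against 24.6% and 32.2% of all tested genes, and at 3 µM 3 were higher and 4 lower, against 19.6% and 33.6%. The panel thus did not move one way, and the rises stood at the edge of the genome-wide range for LDHA, whose change at 0.3 µM lay at percentile 98.4 of all tested genes.

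**Figure D1:**
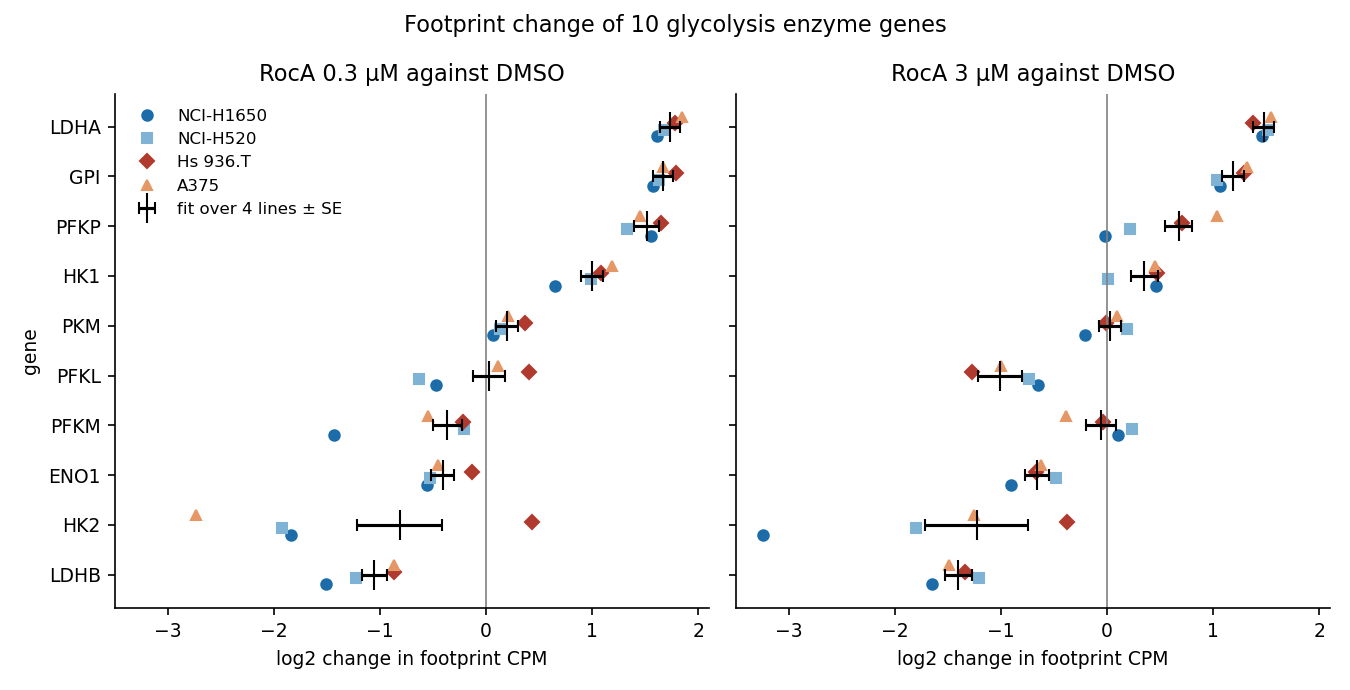
Log2 change in footprint CPM against DMSO (x axis) for the 10 genes (y axis, ordered by the change at 0.3 µM), with RocA at 0.3 µM on the left and 3 µM on the right. Coloured symbols are the single RocA library of each line against the mean of its 2 DMSO libraries, and black marks are the fit over 4 lines with its standard error. LDHA, GPI, HK1, LDHB and ENO1 keep all 4 lines on one side of zero at both doses, while HK2 spreads from -2.73 in A375 to 0.44 in Hs 936.T at 0.3 µM.

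The 2 lactate dehydrogenase subunits moved in opposite directions. LDHA (entry uc010rdd.2, chromosome 11, 18394388 to 18408425, plus strand in GRCh38) encodes the subunit common in muscle and tumours, whose tetramers favour making lactate. LDHA footprints in NCI-H1650 stood at 1259.6 and 1246 CPM with DMSO, 3829 at 0.3 µM and 3455 at 3 µM. In NCI-H520 they were 1928 and 1743 CPM with DMSO, 5874 at 0.3 µM and 5239.8 at 3 µM. In Hs 936.T they were 1103 and 1087 CPM with DMSO, 3776 at 0.3 µM and 2845 at 3 µM, and in A375 1756 and 1825 CPM with DMSO, 6436 at 0.3 µM and 5226 at 3 µM. The RocA libraries of all lines, at 2845 to 6436 CPM, lay above all DMSO libraries, at 1087 to 1928 CPM. The log2 change was 1.73 ± 0.10 at 0.3 µM, a 3.32-fold rise with an edgeR adjusted p of 5.81e-18, and 1.48 ± 0.10 at 3 µM, with an adjusted p of 1.23e-15. Here and for the later edgeR changes with RocA, ± is the standard error (SE) of the fit to all 16 libraries. Single lines ranged over 1.61 to 1.85 at the lower dose and 1.38 to 1.55 at the higher, the narrowest spread between lines at 0.3 µM of any of the 10 genes apart from GPI.

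LDHB (entry uc001rfd.4, chromosome 12, 21635342 to 21757857, minus strand) encodes the subunit common in heart, whose tetramers favour turning lactate back into pyruvate. LDHB footprints in NCI-H1650 stood at 471 and 471 CPM with DMSO, 165 at 0.3 µM and 149 at 3 µM. In NCI-H520 they were 728 and 832 CPM with DMSO, 331 at 0.3 µM and 336 at 3 µM. In Hs 936.T they were 2053 and 1959 CPM with DMSO, 1102 at 0.3 µM and 791 at 3 µM, and in A375 1333 and 1296 CPM with DMSO, 723 at 0.3 µM and 469 at 3 µM. Every RocA library lay below both DMSO libraries of its own line, although the lines differ so much that the pooled ranges overlap. The log2 change was -1.05 ± 0.12 at 0.3 µM (edgeR adjusted p 6.82e-10) and -1.40 ± 0.13 at 3 µM (edgeR adjusted p 4.05e-12), or 2.08-fold and 2.64-fold lower. A short LDHB entry of 92 counted codons, against 325, moved less. Its mean log2 change over lines was -0.46 at 0.3 µM and -0.42 at 3 µM, against -1.11 and -1.41 for the entry used.

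Within a library the LDHA to LDHB ratio does not depend on how the library is scaled. Counted per codon, LDHA made up 71.1% ± 0.143 (SD, n = 2) of lactate dehydrogenase footprints in NCI-H1650 with DMSO, 68.5% ± 3.58 in NCI-H520, 33.5% ± 0.512 for Hs 936.T and 55.7% ± 1.16 in A375. At 0.3 µM the LDHA share was 95.5%, 94.2%, 76.0% and 89.2% in the same order. Hs 936.T thus went from a minority to a majority of LDHA, and the other lines from a majority to a larger one. The log2 ratio rose in 4 of 4 lines at each dose, by 2.84 ± 0.21 (SD over 4 lines) at 0.3 µM and 2.89 ± 0.19 at 3 µM. The two-sided exact sign permutation test over lines gave a p of 1 in 8, the smallest that 4 lines allow, and 0.143 after adjustment over the 8 ratio tests. Lactate dehydrogenase has processed pseudogene copies, and the sources used here do not say how the authors treated reads that map to several places, so absolute counts of both genes are uncertain.

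**Figure D2:**
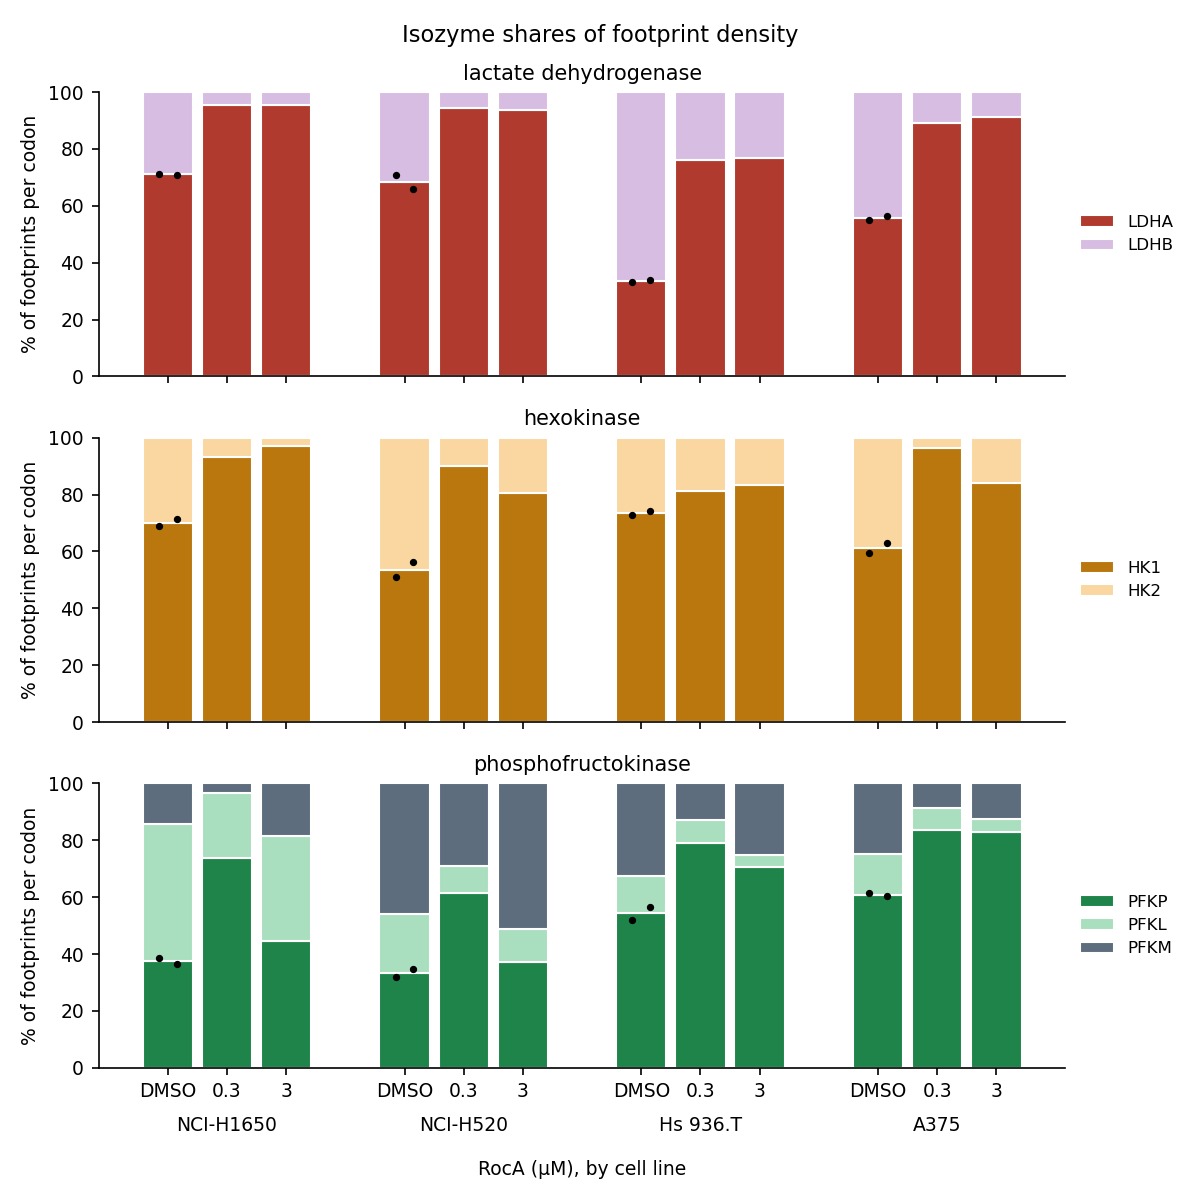
Share of footprints per codon (y axis, percent) that each isozyme gene contributed to lactate dehydrogenase, hexokinase and phosphofructokinase, by cell line and RocA dose in µM (x axis). DMSO bars are the mean of 2 libraries with both values as dots on the share of the lowest gene of the stack, and RocA bars are single libraries. LDHA and HK1 gain share in all 4 lines at both doses, and PFKP gains share in all 4 lines at both doses.

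Of the 2 hexokinases, HK1 rose at both doses and HK2 was not called at either. HK1 (entry uc001jpl.5, chromosome 10, 69269984 to 69401884, plus strand) is the widely expressed hexokinase and HK2 (entry uc002snd.4, chromosome 2, 74833981 to 74893359, plus strand) the insulin-responsive form that many tumours express, and both can bind mitochondria. HK1 footprints in NCI-H1650 stood at 224 and 211 CPM with DMSO, 341 at 0.3 µM and 299 at 3 µM. In NCI-H520 they were 128 and 135 CPM with DMSO, 262 at 0.3 µM and 132 at 3 µM. In Hs 936.T they were 189 and 177 CPM with DMSO, 389 at 0.3 µM and 254 at 3 µM, and in A375 113 and 128 CPM with DMSO, 275 at 0.3 µM and 165 at 3 µM. HK1 was above both DMSO values of its line in every RocA library except NCI-H520 at 3 µM, which lay between them. The change was 1.0 ± 0.11 at 0.3 µM (edgeR adjusted p 2.19e-10) and 0.35 ± 0.12 at 3 µM (edgeR adjusted p 0.0144). The call at 3 µM was lost in 6 of the alternatives, among them without either 3 µM library of the melanoma lines, with adjusted p of 0.106 (Hs 936.T) and 0.062 (A375).

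HK2 footprints in NCI-H1650 stood at 102 and 84.6 CPM with DMSO, 25.1 at 0.3 µM and 8.79 at 3 µM. In NCI-H520 they were 124 and 105 CPM with DMSO, 29.2 at 0.3 µM and 31.9 at 3 µM. In Hs 936.T they were 70.8 and 61.5 CPM with DMSO, 89.7 at 0.3 µM and 50.4 at 3 µM, and in A375 76.7 and 74.5 CPM with DMSO, 10.4 at 0.3 µM and 31.0 at 3 µM. HK2 was below both DMSO values of its line in 7 of 8 RocA libraries, the exception being Hs 936.T at 0.3 µM, and its RocA counts were only 1 to 85 reads. The fitted change over 4 lines was -0.81 ± 0.40 at 0.3 µM (edgeR adjusted p 0.103) and -1.23 ± 0.49 at 3 µM (edgeR adjusted p 0.0512), and neither passed. The fit gives more weight to libraries with more reads, and Hs 936.T had 85 at 0.3 µM, against 6 to 11 in the other lines. Single lines changed by -1.84 (NCI-H1650), -1.92 (NCI-H520), 0.44 (Hs 936.T) and -2.73 (A375) at 0.3 µM, and by -3.24 to -0.38 at 3 µM. HK2 was the only one of the 10 genes whose response differed between lines, with an adjusted p of 3.43e-05 by edgeR's quasi-likelihood F test, where 2.87% of all tested genes were called. That difference rests on 1 library: without Hs 936.T at 0.3 µM its adjusted p was 0.350, and the HK2 change at 0.3 µM then became -2.20 with an adjusted p of 1.06e-09.

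As a share of hexokinase reads, HK2 held 31.2% and 28.7% in the DMSO libraries of NCI-H1650, against 6.86% at 0.3 µM (exact Clopper-Pearson 95% interval 2.80 to 13.6%) and 2.86% at 3 µM (0.0723 to 14.9%, from 1 of 35 reads). In A375 it went from 40.5% and 36.8% to 3.64% (1.35 to 7.75%) and 15.8% (9.33 to 24.4%). In Hs 936.T it went from 27.3% and 25.7% to 18.8% and 16.6%, the smallest shift of the 4 lines. These intervals cover counting error only. The log2 ratio of HK2 to HK1 fell in 4 of 4 lines at each dose, with a mean of -2.49 ± 1.38 (SD) at 0.3 µM and -1.91 ± 1.02 at 3 µM (exact sign permutation, adjusted p = 0.143 for each dose).

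The 3 phosphofructokinase genes gave 3 different patterns. PFKP (entry uc001igp.4, chromosome 10, 3066333 to 3137712, plus strand), the platelet form that many tumour cells use, rose. PFKP footprints in NCI-H1650 stood at 96.4 and 99.6 CPM with DMSO, 290.4 at 0.3 µM and 96.7 at 3 µM. In NCI-H520 they were 91.2 and 111 CPM with DMSO, 254 at 0.3 µM and 118 at 3 µM. In Hs 936.T they were 363 and 394 CPM with DMSO, 1189.8 at 0.3 µM and 617 at 3 µM, and in A375 265 and 246 CPM with DMSO, 702 at 0.3 µM and 527 at 3 µM. All 4 lines lay above their DMSO values at 0.3 µM. At 3 µM the NCI-H1650 value lay between its DMSO values and that of NCI-H520 lay above by less than the gap between them. The change was 1.51 ± 0.11 at 0.3 µM (edgeR adjusted p 2.72e-14) and 0.68 ± 0.13 at 3 µM (edgeR adjusted p 2.19e-05).

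PFKL (entry uc002zel.4, chromosome 21, 44300051 to 44327376, plus strand), the liver form, was lower in all 4 lines at 3 µM but not at 0.3 µM. Its counts were 9 to 114 reads in the RocA libraries. In Hs 936.T it stood at 94.7 and 86.1 CPM with DMSO, 120.4 at 0.3 µM and 36.8 at 3 µM, and in NCI-H520 at 54.9 and 70.3 CPM with DMSO, 39.8 at 0.3 µM and 36.8 at 3 µM. The change at 0.3 µM was 0.03 ± 0.15 (edgeR adjusted p 0.879), with the lines on both sides of zero, and -1.01 ± 0.21 at 3 µM (edgeR adjusted p 8.31e-05).

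PFKM (entry uc001rrb.3, chromosome 12, 48105139 to 48146404, plus strand), the muscle form, was lower in all 4 lines at 0.3 µM, at -0.36 ± 0.14 (edgeR adjusted p 0.021), and stood at -0.05 ± 0.14 at 3 µM (edgeR adjusted p 0.766). In NCI-H1650 it had only 4 and 5 reads after RocA, and in Hs 936.T it stood at 260.3 and 233 CPM with DMSO, 212 at 0.3 µM and 240.5 at 3 µM. The call at 0.3 µM was lost without A375, with an edgeR adjusted p of 0.127, and in 3 further alternatives. Short PFKM entries, with library counts down to 0, went both ways at 0.3 µM. Mean log2 changes over lines at 0.3 and 3 µM were 0.63 and 1.33 for entries of 93 counted codons. They were -0.36 and 0.85 for one of 151. A long entry of 740 stood at -0.53 and 0.06, against -0.57 and 0.02 for the entry used.

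With DMSO, PFKP held 60.8% ± 0.772 (SD, n = 2) of phosphofructokinase footprints per codon in A375 and 54.4% ± 3.27 in Hs 936.T. PFKL held the largest share in NCI-H1650, 48.0% ± 0.617, and PFKM in NCI-H520, 45.8% ± 3.76. At 0.3 µM PFKP was the main form in every line, at 73.8% in NCI-H1650, 61.5% in NCI-H520, 79.0% for Hs 936.T and 83.8% in A375. At 3 µM PFKM was again the main form in NCI-H520, at 51.2%. The PFKP to PFKL ratio rose in 4 of 4 lines at both doses, by 1.63 ± 0.41 and 1.39 ± 0.71 log2 units (SD; exact sign permutation, adjusted p = 0.143 each). The PFKP to PFKM ratio rose in 4 of 4 lines at 0.3 µM, by 2.08 ± 0.60, but in 2 of 4 at 3 µM, where the mean was 0.49 ± 0.74 (exact sign permutation p = 0.5).

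GPI (entry uc002nvg.3, chromosome 19, 34359480 to 34402413, plus strand), the single isomerase between hexokinase and phosphofructokinase, rose nearly as far as LDHA. GPI footprints in NCI-H1650 stood at 624 and 603 CPM with DMSO, 1829 at 0.3 µM and 1283 at 3 µM. In NCI-H520 they were 1055 and 1036 CPM with DMSO, 3239 at 0.3 µM and 2153 at 3 µM. In Hs 936.T they were 966 and 978 CPM with DMSO, 3366 at 0.3 µM and 2383 at 3 µM, and in A375 658 and 641 CPM with DMSO, 2069 at 0.3 µM and 1624 at 3 µM. No RocA value overlapped the DMSO values of any line. The change was 1.67 ± 0.10 at 0.3 µM, 3.18-fold (edgeR adjusted p 1.85e-17), and 1.19 ± 0.10 at 3 µM, 2.28-fold (edgeR adjusted p 6.25e-13).

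By the entries used, the 2 enzymes of the last steps to pyruvate changed least among the abundant genes. ENO1 (entry uc001apj.3, chromosome 1, 8861000 to 8879250, minus strand), which makes phosphoenolpyruvate, fell below the DMSO values of its line in all 8 RocA libraries, which spanned 1626 to 3364 CPM against 3020.1 to 4632 with DMSO. Its change was -0.41 ± 0.11 at 0.3 µM (edgeR adjusted p 0.00126) and -0.66 ± 0.11 at 3 µM (edgeR adjusted p 3.15e-06). A shorter ENO1 entry of 185 counted codons, against 425, moved less. Its mean log2 change over lines was -0.06 at 0.3 µM and -0.13 at 3 µM, against -0.42 and -0.67 for the entry used. PKM (entry uc002aty.3, chromosome 15, 72199029 to 72231822, minus strand), which makes pyruvate and ATP from it, spanned 2604 to 3158 CPM with DMSO and 2286 to 3822 with RocA, and the ranges overlap. Its change was 0.20 ± 0.10 at 0.3 µM (edgeR adjusted p 0.095) and 0.03 ± 0.10 at 3 µM (edgeR adjusted p 0.846). Over all PKM entries, the mean log2 changes ranged from 0.19 to 0.90 at 0.3 µM and from -0.000865 to 0.84 at 3 µM. Both genes also have processed pseudogenes, so their counts share the uncertainty named for lactate dehydrogenase.

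Between the doses, 3.31% of all tested genes were called, 2.37% lower and 0.935% higher at 3 than at 0.3 µM. Of the 10 genes, 4 were called, all lower at 3 µM, with log2 differences for GPI at -0.48 ± 0.12 (edgeR adjusted p 0.0145), HK1 at -0.65 ± 0.14 (0.00617), PFKP at -0.84 ± 0.15 (0.000837) and PFKL at -1.04 ± 0.25 (0.0112). So 3 of the 4 genes that rose at 0.3 µM stood lower at 3 µM, and the LDHA difference, -0.26 ± 0.12 (edgeR adjusted p 0.258), did not pass, although DESeq2 called it (-0.22, adjusted p 0.0263). The count of 4 fell to 2 without either RocA library of Hs 936.T, without the NCI-H521 libraries or without NCI-H520, and to 1 without Hs 936.T or without A375. The 2 doses share the DMSO libraries, and each dose has 1 library a line.

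In the DMSO libraries, ENO1, PKM and LDHA had the highest density of reads per length on average over the lines and HK2 and PFKL the lowest. Every one of the 10 genes differed between the 4 lines (edgeR's quasi-likelihood F test over 8 DMSO libraries, adjusted p from 2.98e-25 for LDHB to 7.37e-05 for PKM). That is little above the background, since 91.6% of 12079 genes differed. In CPM per kilobase of counted coding sequence, ENO1 stood at 2391 ± 30.8 (SD, n = 2) in NCI-H1650, its lowest level, at 2671 ± 29.9 in Hs 936.T, at 3214 ± 38.5 in NCI-H520 and at 3618 ± 21.8 in A375, its highest, and all 6 pairs of lines differed. PKM was the most even, with a density of 1687 ± 33.8 in NCI-H1650 to 1991 ± 36.4 in NCI-H520, and neither of the pairs NCI-H520 and Hs 936.T, or NCI-H1650 and A375, passed the test.

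**Figure D3:**
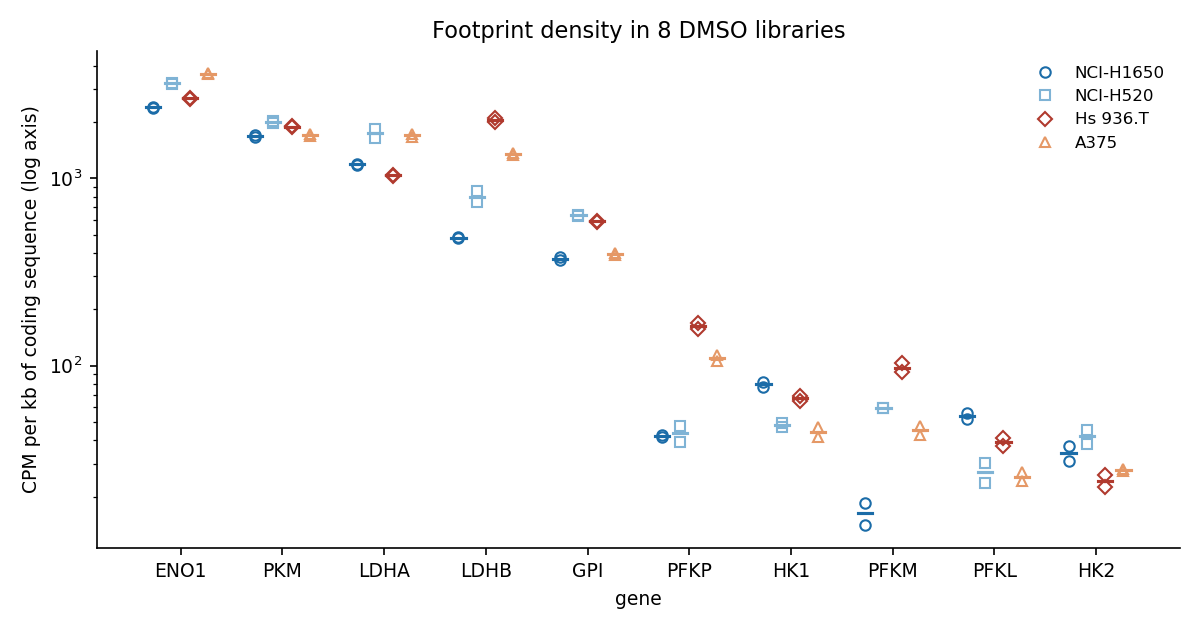
Footprint density in CPM per kilobase of counted coding sequence (y axis, log scale) for the 10 genes (x axis, ordered by mean density) in the 8 DMSO libraries, with open symbols for single libraries and short lines for the mean of 2. The lines keep close for PKM and lie apart for LDHB, PFKP and PFKM, where Hs 936.T is highest.

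The largest differences between lines were in LDHB, PFKM and PFKP, each highest in Hs 936.T. LDHB density was 2058 ± 68.2 in Hs 936.T, 1348 ± 26.6 in A375, 799.7 ± 75.7 in NCI-H520 and 483 ± 0.470 in NCI-H1650, and all 6 pairs differed. PFKM was lower in NCI-H1650 than in Hs 936.T, with a difference of -2.71 ± 0.15 log2 units (edgeR adjusted p 9.19e-20). PFKP was lower in NCI-H1650 and NCI-H520 than in both melanoma lines, and the lung pair was not called apart (log2 difference -0.13 ± 0.15, edgeR adjusted p 0.449).

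For LDHA the order was NCI-H520 and A375, which were not called apart (adjusted p 0.842 by edgeR), above NCI-H1650 and Hs 936.T, which were not called apart either (0.436). LDHA and LDHB thus had different orders, and Hs 936.T was lowest in the first and highest in the second. GPI was higher in NCI-H520 and Hs 936.T than in NCI-H1650 and A375, with no call within either pair. HK1 was higher in NCI-H1650 and Hs 936.T, again with no call within the pairs, and HK2 was highest in NCI-H520. PFKL was highest in NCI-H1650, then Hs 936.T, with A375 and NCI-H520 lowest and not apart. Of the 6 pairs of lines, between 4 (GPI, HK1, HK2, LDHA, PKM) and 6 (ENO1, LDHB, PFKM) were called per gene. The test called 9 of the 10 genes between NCI-H1650 and NCI-H520, against 59.1% of all tested genes, and 8 between NCI-H1650 and Hs 936.T, against 69.2%. It called 7 between NCI-H1650 and A375 (64.2% of all) and 8 between NCI-H520 and Hs 936.T (59.2% of all). It called 7 between NCI-H520 and A375 (56.6% of all) and 9 between Hs 936.T and A375 (64.3% of all). Leaving out 1 DMSO library lost calls for some pairs of HK2, PFKL, PKM, ENO1 and PFKM, with differences of at most 0.38 log2 units.

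Short entries of the same genes show where along the coding sequence the reads lie. For 7 of the 10 genes an annotated short entry shares the start codon with a longer one, here called full, and ends early. Its reads as a percent of the full entry's thus measure the share in the early codons. For PFKP the longer entry has only 230 counted codons, where the entry that stands for the gene has 775. For LDHB the short entry covers 28.3% of the codons, and its reads were 24.9% and 26.2% of the total in NCI-H1650 with DMSO, 43.5% at 0.3 µM and 52.9% at 3 µM. These RocA shares rest on few reads: the full entry had 46 at 0.3 µM and 17 at 3 µM, where the short one had 9. In A375 the shares were 24.9% and 24.5%, then 45.7% and 50.4%. The LDHB share rose in 4 of 4 lines at both doses, as did those of GPI and PKM. GPI rose from 27.8% and 28.1% in Hs 936.T to 30.9% and 39.1%, around a codon share of 27.1%.

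The mean log2 change of the early share at 3 µM was 0.99 ± 0.18 (SD, 4 lines) for LDHB, 0.53 ± 0.04 for GPI, 0.31 ± 0.09 for PKM, 0.62 ± 0.36 for HK1 and 0.05 ± 0.27 for LDHA, which rose in 3 of 4 lines there. The background was 125 genes with such a pair whose short entry had at least 10 reads in every library. Their median was 0.42 at 0.3 µM and 0.66 at 3 µM, and 87.2% rose in all 4 lines at each dose. A rise in the early share after RocA was thus common among these genes. The short entries of LDHB and HK1, with lowest counts of 9 and 5 reads, did not reach that limit. Early reads take part in every gene count above. PFKM and PFKP had too few reads for the share to be read, with library counts down to 0 and 1.

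**Figure D4:**
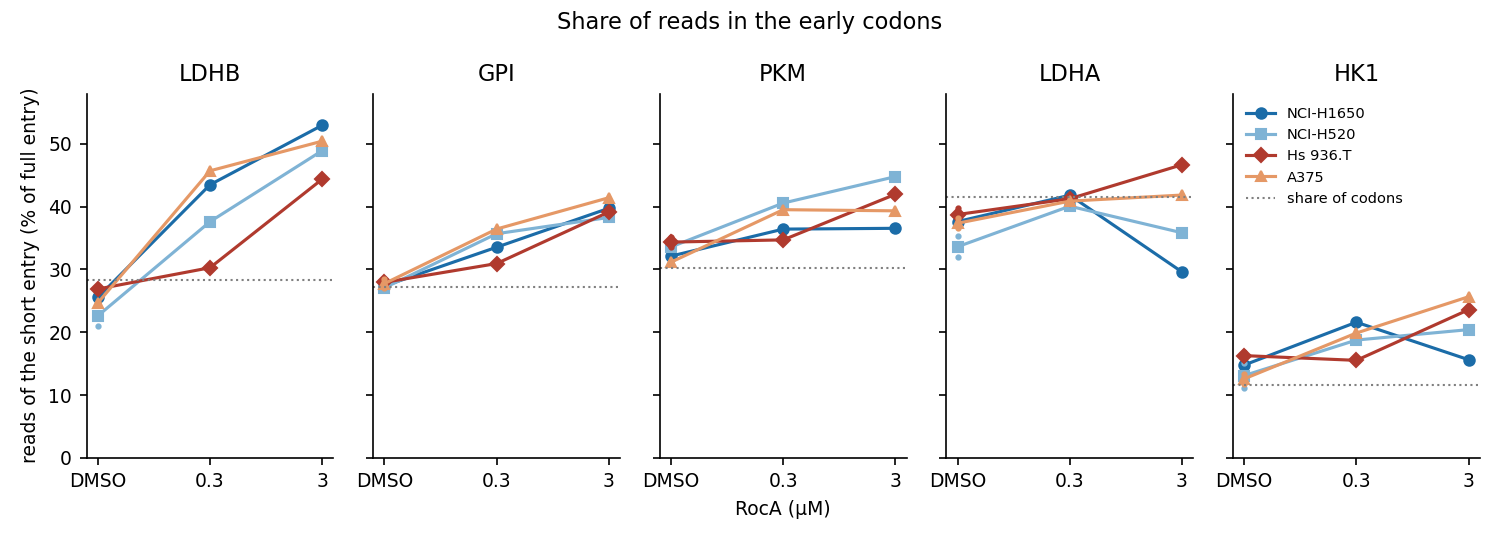
Reads of a short entry that shares the start codon, as a percent of the reads of the full entry (y axis), by RocA dose in µM (x axis) for 5 genes. Lines join the mean of 2 DMSO libraries (small dots) to the single RocA libraries of a cell line, and the dotted line is the short entry's share of the codons. LDHB climbs in all 4 lines, to 44.4 to 52.9% at 3 µM, while LDHA falls in NCI-H1650 at 3 µM. The highest LDHB value is 9 of 17 reads, in NCI-H1650. The short HK1 entry goes down to 5 reads.

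PKM has a pair of alternative exons of equal length, M1 and M2, and the M2 form is the one known from proliferating cells. Of its 5 entries of 522 counted codons, the most read holds the exon at chr15:72202454-72202620 and the others that at chr15:72203022-72203188 (GRCh38, minus strand, 167 bases each), which are by their order the M2 and M1 exons. The difference between these entries' counts is M2 reads less M1 reads. It was positive in all 16 libraries, from 8.38% to 11.4% of the most read entry with DMSO, where the exon holds 10.7% of the codons, and from 5.51% to 10.99% with RocA. It was below both DMSO values in 3 of 4 lines at 0.3 µM and in 4 of 4 at 3 µM, while the early codons of PKM gained share.

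RocA is known to clamp eIF4A on RNA rich in A and G. The longest run of A and G in each annotated 5′ untranslated region (UTR) is given for 6 of the genes, chosen with their values known: both lactate dehydrogenases, both hexokinases, and GPI and PFKP, which rose at both doses. Sequences are from GRCh38 with GENCODE 29 transcripts, 5′ to 3′ on the mRNA strand, with up to 6 bases on each side and the run in capitals.
LDHA, chr11:18396332-18396354 plus strand: ccgagcGGGAAGGAGAGccacaa
LDHB, chr12:21657645-21657672 minus strand: agacgcGGGAAGGAGGAAGAAGcacatc
GPI, chr19:34365127-34365137 plus strand: AGGGGtggggc
PFKP, chr10:3067533-3067548 plus strand: gcgggcAGGGtcccca
HK1, chr10:69318844-69318861 plus strand: GAGGAGGAGGAGccgccg
HK2, chr2:74834338-74834358 plus strand: gtcgccAGGAGAGAActgagg

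By the transcripts of the entries used, LDHB, which fell, has the longest run of the 10 genes, 16 bases. That lies at percentile 94.0 of the 9231 tested genes with a 5′ UTR of 10 bases or more, where the median run was 8 bases. GPI and PFKP, which rose, have runs of 5 and 4 bases. LDHA and HK1, which also rose, have runs of 11 and 12 bases. The run of HK2, which was not called, has 9 bases, that of PFKM 11, that of PKM 6, and those of PFKL and ENO1 5 each. Whether run length bears on the changes was not tested. A coding length does not show which 5′ UTR the cells used. Another main annotated transcript of LDHB, whose entry had an equal read total, has a longest run of 8 bases. For LDHA other main transcripts have runs of 4 to 11, and for PFKM 7 to 13. Such transcripts have runs of 13 bases for PKM, 5 and 8 for ENO1, and 2 for GPI. A run is a description of the letters and not a measured binding site.

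Among the other genes of glycolysis, 13 of 21 listed passed the filter, of which 5 rose and 3 fell at 0.3 µM and 5 rose and 5 fell at 3 µM, near the shares over all tested genes, with median log2 changes of -0.24 and -0.10 against -0.09 and -0.16 over all tested genes. PGAM1, the mutase before enolase, rose by 0.87 ± 0.10 at 0.3 µM and 0.88 ± 0.10 at 3 µM, and ADPGK, a kinase that phosphorylates glucose with ADP, rose by 0.92 ± 0.17 and 0.85 ± 0.20. Of 7 tested carriers of glucose and lactate, 4 fell at 0.3 µM and 5 at 3 µM, and none rose by the edgeR test, where 32.5% and 31.9% of all tested genes fell and 27.5% and 25.2% rose. The medians were -0.78 and -0.88, and with 7 genes the counts are small. SLC16A1, the lactate carrier MCT1, fell by 0.89 and 0.87, with standard errors of 0.12 and 0.14. SLC2A1, the glucose carrier GLUT1, fell by 1.82 ± 0.64 and 2.63 ± 0.77, lower in 3 of 4 lines at the first dose and 4 of 4 at the second.

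In the side branches, 3 of 9 pentose phosphate genes rose and 2 fell at 0.3 µM, and 4 rose and 3 fell at 3 µM. With 27.5% of all tested genes rising and 32.5% falling at 0.3 µM, and 25.2% and 31.9% at 3 µM, the pentose phosphate counts lie near the background. PGD, the second dehydrogenase of that pathway, rose by 1.99 ± 0.10 and 1.77 ± 0.11, further than LDHA, while PRPS1, which makes phosphoribosyl pyrophosphate, fell by 1.56 ± 0.18 and 1.62 ± 0.21. Of 15 genes from pyruvate to acetyl-CoA, 5 rose and 3 fell at 0.3 µM, and 2 rose and 5 fell at 3 µM. DLD, the shared dehydrogenase subunit of that complex, fell by 1.86 ± 0.19 and 1.84 ± 0.21. Of 14 tricarboxylic acid cycle genes, 10 rose and 2 fell at 0.3 µM, and 9 rose and 2 fell at 3 µM, with medians of 0.84 and 0.50. That is a larger share of rises than the 27.5% and 25.2% over all tested genes, a description without a test of the list.

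Of 11 tested genes of other glucose use, 7 rose and 2 fell at 0.3 µM, and 5 rose and 2 fell at 3 µM, where 27.5% and 25.2% of all tested genes rose and 32.5% and 31.9% fell. UGP2, which makes UDP-glucose for glycogen, fell by 2.30 ± 0.20 and 2.82 ± 0.25. In the same list PCK2 rose by 1.75 ± 0.17 and 1.29 ± 0.21, and PYGL by 1.36 ± 0.13 and 1.23 ± 0.15. PGM2 rose by 0.88 ± 0.13 and 1.05 ± 0.14. Of 8 regulators, 2 rose and 2 fell at 0.3 µM, and 3 rose and 4 fell at 3 µM. At 0.3 µM both regulator counts lie at or below the shares of all tested genes. HIF1A, the oxygen-regulated factor that drives glycolytic genes, fell by 2.20 ± 0.18 at 0.3 µM and fell by 2.73 ± 0.22 at 3 µM, and MYC fell by 1.28 ± 0.17 and fell by 1.84 ± 0.21. The largest adjusted p by edgeR among the genes named in these lists at either dose was 0.0292, for SLC2A1 at 0.3 µM.

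As a description of profiles over the 16 libraries, which share lines and doses, the tested gene most like LDHA by Pearson's r of log2 CPM was TMX2-CTNND1 (r = 0.99), a readthrough gene, followed by EIF3F and GCN1 (r = 0.97 each). For LDHB it was KPNA2 (r = 0.96), for GPI ATP5F1B (0.98), for PFKP PLCG1 (0.95) and for PFKL SERINC1 (0.93). For PFKM it was RAB38 (0.97), for HK1 ACADS (0.93), for HK2 CHTF8 (0.97) and for ENO1 RPSA (0.95). PKM, the most even gene, had the lowest best match, NDUFS7 (0.89).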

How the data were processed

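Footprint counts of 16 libraries (4 cell lines, 2 DMSO libraries and 1 at each of 2 RocA doses) were used as the authors deposited them: raw counts per transcript entry, 182398 entries per library, of which 88482 are noncoding and hold none. Per the submitters' processing notes, CASAVA 1.8, Bowtie2 2.1.0, TopHat2 2.0.9 and hg38 were used; how multiply mapped reads were treated is not given in the sources. Reads are repeated over the entries of a gene.

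Entries carry no gene names, so genes were named from coding lengths (codons less 10): the order of lengths along each chromosome was aligned to GENCODE 29, and a gene was named when its longest length matched or its length score reached 14 (natural log). This named 19389 of 20334 genes. Of 1016 genes given altered lengths as decoys, 25 were named, a number equal to 2.57% of the 972 named with their true lengths. The score alone would leave out LDHB and ENO1; the rule that keeps them was chosen with that known. The alignment was corrected once, after a table of like profiles showed entries of LDHA and GPI counted under neighbouring genes; the entries that stand for the 10 genes did not change. The comparison of early codons, and its rule for pairing entries, which was widened once, were also set after seeing the data. The 10 genes and all lists were chosen with earlier results of these data known.

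edgeR 4.0.16 (TMM, minimum count of 10, robust quasi-likelihood) gave all calls; DESeq2 1.42.0 was an alternative. Per-line changes are differences in log2 CPM with a prior count of 2. The fit for line responses had 1 response per line, with the step from 0.3 to 3 µM shared by all lines. The scripts were tested on simulated data. Alternatives were another scaling, test, filter or entry, equal depth, a stricter naming score, and leaving out libraries or lines. Besides the 10 genes, up to 4 called genes per list, those with the largest mean absolute change, could be named, of which some are given here, and the 1 to 3 genes most like each of the 10. DMSO replicates differed by more than counting noise (chi-square per degree of freedom 1.53 to 2.57), so none was counted as a repeat. Nothing says whether they are separate cultures, so p-values measure the spread between these libraries.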

Additional observations from a re-analysis of the deposited data

Results flagged for a closer look

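The HK1 change at 3 µM was set apart by 1 line. It was 0.0097 log2 units in NCI-H520 against 0.45 in A375, 0.46 in NCI-H1650 and 0.47 in Hs 936.T, so nearly the whole range of the 4 lines lies between NCI-H520 and the next. The NCI-H520 library at 3 µM is one of the 2 with the label NCI-H521. Chance sets apart about 1 in 20 groups of this kind, and 20 were looked at.

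The HK2 response differed between lines, with an adjusted p of 3.43e-05 (edgeR's quasi-likelihood F test over all 16 libraries). At 0.3 µM HK2 was lower in 3 of 4 lines, with log2 changes of -1.84, -1.92 and -2.73, and 0.44 in Hs 936.T. Without the Hs 936.T library at 0.3 µM the adjusted p was 0.350.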

How the results depend on the processing

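The rises of LDHA, GPI, PFKP and HK1 at 0.3 µM and the falls of LDHB and ENO1 at both doses were called under every alternative that gave them a value. The stricter naming score gave none for LDHB and ENO1. For LDHA, LDHB, PFKP and ENO1 the entry used is also the longest. The alternative entry thus reused their counts and does not test the choice of entry for them. Over all single-gene values, 1155 settings kept direction and call, 26 lost the call, 20 gained it and 19 turned the sign, and the cause was not tested in any of them.

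Leaving out libraries or lines gave 6 to 8 called genes at each dose, 1 to 4 between the doses and 0 to 1 for a difference between lines, and all 10 differed between lines under DMSO. The 4 calls between the doses became 2 with the 2 libraries labelled NCI-H521 left out. The count for a difference between lines became 0 without Hs 936.T at 0.3 µM or without all Hs 936.T libraries. Left-out lines gave mean log2 ratio changes of 2.75 to 2.91 and 2.82 to 2.94 for LDHA to LDHB at 0.3 and 3 µM, -3.10 to -1.997 and -2.27 to -1.45 for HK2 to HK1, 1.503 to 1.77 and 1.18 to 1.65 for PFKP to PFKL, and 1.799 to 2.26 and 0.18 to 0.72 for PFKP to PFKM.

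HK2 was called lower at 0.3 µM in 5 alternatives and at 3 µM in 11, DESeq2 among both (-1.37 and -1.50, adjusted p 0.00115 and 0.000904), so the misses depend on the method. The signs that turned belonged to changes that were not called. PFKL at 0.3 µM became -0.0368 with DESeq2 size factors, -0.14 with no filter, -0.02998 with the stricter naming score, -0.11 at equal depth and -0.0786 with DESeq2. It was -0.0338 without Hs 936.T DMSO replicate 2, -0.28 without the Hs 936.T library at 0.3 µM, -0.276 without that line, and at most 0.16 when any 1 library was left out. PFKM at 3 µM became 0.0457 at equal depth, 0.0435 without the A375 library at 3 µM and 0.0648 without A375, with a lowest value of -0.18 when 1 library was left out. PKM at 3 µM became -0.12 with no filter, -0.0469 without the NCI-H521 libraries, -0.0549 without the NCI-H520 library at 3 µM, -0.00713 without the A375 library at 3 µM, -0.00735 without NCI-H520 and -0.00143 without A375, with a highest value of 0.0816 when 1 library was left out. HK2 at 3 against 0.3 µM became 0.98 without the Hs 936.T library at 0.3 µM and 0.54 without that line, with a lowest value of -0.80 when 1 library was left out.

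The replicate numbers of the DMSO libraries paired no lines (correlations of deviations from -0.014 to 0.071), and with the replicate number as a block the count of genes that differ between lines was again 10. Leaving out a library or line for the line responses and the ratios, and the stricter naming score, were chosen after seeing the data. HK2, PFKL and PFKM rest on few reads after RocA, down to 1, 9 and 4. PFKP, LDHB and HK1 go down to 11, 17 and 34 reads, each in NCI-H1650 at 3 µM.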

Other observations

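The 10 genes together took up 0.980% to 1.28% of the counts of all named genes in the DMSO libraries and 1.07% to 1.52% in the RocA libraries, and the ranges overlap. Within lines, the share at 0.3 µM lay above both DMSO values in 4 of 4 lines, for example at 1.52% against 1.16% and 1.16% in Hs 936.T. At 3 µM it lay above both in NCI-H1650 and A375 and below both in NCI-H520 and Hs 936.T. On the TMM-scaled CPM scale, the sum of the 10 genes was above both DMSO libraries of its line in all 8 RocA libraries, so the direction at 3 µM in those 2 lines depends on the scaling. No test was made of the sum.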
